A study of Drosophila melanogaster with 3 samples.

Results

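The basement membrane is the sheet of extracellular matrix under an epithelium, and here it is described by 10 genes: Col4a1 and vkg, which encode the chains of collagen IV, LanA, LanB1 and LanB2, which encode the alpha, beta and gamma chains of laminin, Ndg (nidogen), trol (perlecan), SPARC, and the matrix metalloprotease genes Mmp1 and Mmp2. They were selected by symbol in the deposited table, whose unit is FPKM (fragments per kilobase of exon length, brought to a common library size), and all 10 were found among the 17611 genes listed. RNA came from the wing discs, the larval primordia of the wing and dorsal thorax, of wandering Drosophila melanogaster larvae of the last instar raised at 25 °C, about 5 days after egg laying. The source label gives the genotype w;apGAL4/+, a white background with 1 copy of the GAL4 driver that follows the dorsal gene apterous and with no UAS target named, while the genotype field says wild type and the table's columns carry the prefix w118, so the exact stock is uncertain. There were 3 libraries, each from 100 to 120 pooled discs and all of 1 group, so no condition is compared with another. The labels do not say that they came from separate cultures, and the spread between them may be technical.

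Laminin trimers bind each other and cell surface receptors to start a basement membrane, collagen IV forms the covalent network that gives it stiffness, nidogen and perlecan link these networks, and SPARC binds collagen IV. In fly larvae much of the collagen IV in the wing disc is made by fat body and reaches the disc through the hemolymph. Hemocytes, the blood cells, also make collagen IV. Mmp1 and Mmp2 are the matrix metalloproteases of the fly, cut matrix proteins when tissues are remodelled, and are inhibited by Timp.

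The marker genes of the discs and of other tissues differed in how steady they were, which bears on genes made in more than 1 tissue. The 3 libraries held 25047758 to 26454934 recovered reads or read pairs. All 10 wing disc epithelium markers reached 1 FPKM or more in each library, as did 54.3% of the 13909 genes above 0 in any library. So did all 7 fat body, 6 salivary gland, 6 tracheal and 7 adult muscle precursor markers. Of the other lists, 7 of 9 hemocyte, 7 of 8 larval muscle and 2 of 7 midgut markers did. The epithelium markers summed to 578, 555 and 558 FPKM in libraries 1, 2 and 3. They were led by shg (E-cadherin), ap and vg at means of 107, 80.7 and 62.1 FPKM. The 7 fat body markers summed to 541, 899 and 2464 FPKM, a 4.56-fold range, led by the storage protein genes Lsp1gamma, Lsp2 and Lsp1beta at means of 426, 324 and 242 FPKM. The 6 salivary gland markers ranged 6.37-fold and the 7 midgut markers 127-fold, both lowest in library 1 and highest in library 2. The 9 hemocyte markers summed to 38.8, 46.8 and 37.8 FPKM, with NimC4 at 0 and with crq, He and Pxn highest. The 8 larval muscle markers summed to 57.7, 89.2 and 69.3 FPKM, and each was highest in library 2. Adult muscle precursor markers ranged 1.09-fold and tracheal markers 1.15-fold.

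Transcripts of most basement membrane genes were present in the disc libraries at a steady level, with laminin far ahead of collagen IV and nidogen close to 1 FPKM. All 10 genes reached 1 FPKM or more in each library, as did 54.3% of the 13909 genes with a value above 0 in any library. By a one-sided limma test of log2(FPKM + 0.1) against 1 FPKM, 9 of the 10 lay above that level, against a background of 53.4% of all genes tested. Their limma adjusted p ran from 3.87e-06 to 2.36e-05 (Benjamini-Hochberg over 13909 genes), and Ndg missed the threshold of 0.05 at an adjusted p of 0.0507. Against 5 FPKM the same 9 genes were called, with a background of 45.8%. The summed FPKM of the 10 genes was 360.1, 365 and 387, or 0.0697%, 0.0689% and 0.0732% of the sum over all genes. In bulk RNA, fewer cells of a type and less RNA per cell cannot be told apart.

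**Figure D1:**
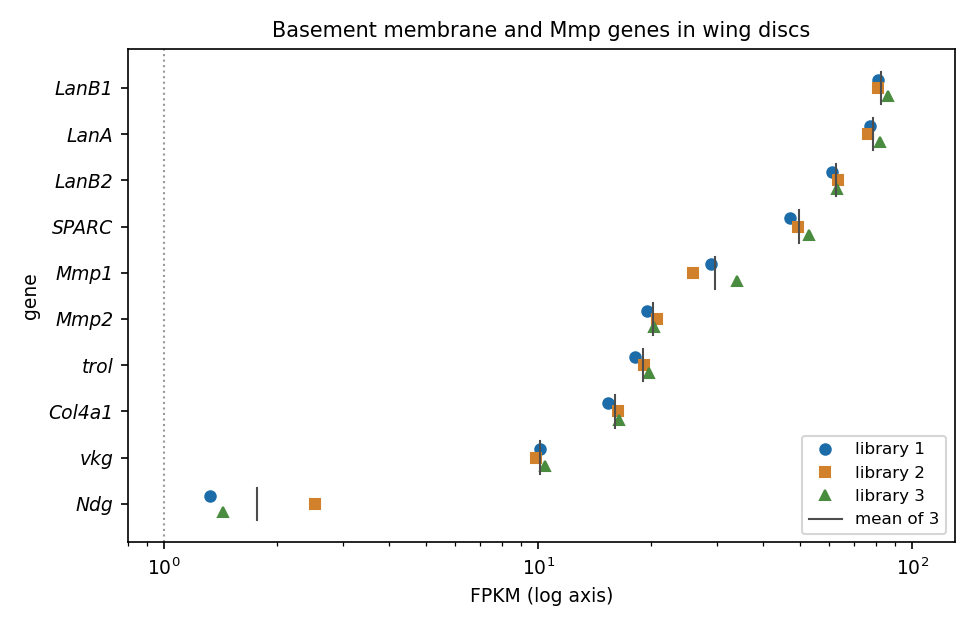
FPKM of the 10 genes on a log axis, with 1 symbol per library, a vertical bar at the mean of the 3 and a dotted line at 1 FPKM. The laminin genes LanB1, LanA and LanB2 stand at 61.1 FPKM or more, Col4a1 and vkg between 9.86 and 16.5 FPKM, and Ndg between 1.33 and 2.53 FPKM.

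The laminin chains were the most abundant of these transcripts. LanB1 (chromosome 2L 7811438 to 7820771, plus strand, dm6 coordinates) stood at 81.0, 81.0 and 86.3 FPKM in libraries 1, 2 and 3. LanA (3L 6203831 to 6218022, minus strand) stood at 77.1, 76.3 and 82.2 FPKM. LanB2 (3L 9614914 to 9623980, plus strand) stood at 61.1, 63.4 and 62.9 FPKM. The chains therefore lay within a narrow range, and library 3 was the highest for LanA and LanB1 but not for LanB2. Means were 82.8 ± 3.04, 78.6 ± 3.20 and 62.5 ± 1.18 FPKM (SD, n = 3), at ranks 894, 952 and 1224 of all genes listed. The values of LanA and LanB1 overlapped across libraries, although within each library LanA was the lower, with a log2 ratio of -0.07 ± 0.01. LanB2 did not overlap either of them. It lay below LanB1 with a log2 ratio of -0.40 ± 0.05, and LanA exceeded it by 0.33 ± 0.06. Together the 3 chain genes held 60.9%, 60.5% and 59.8% of the FPKM summed over the 10 genes.

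A laminin trimer takes its alpha chain from LanA or from wb (wing blister). wb (2L 14263027 to 14328262) stood at 7.46, 6.93 and 7.30 FPKM, a mean of 7.23 ± 0.272 FPKM. Every library of wb lay far below every library of LanA, with a log2 ratio of wb to LanA of -3.42 ± 0.06, or 10.7-fold lower. Its merged exons span several transcripts, and with the longest transcript as the length the log2 ratio was -3.13.

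Collagen IV transcripts were much scarcer than laminin transcripts. Col4a1 (2L 5029609 to 5037279, plus strand) stood at 15.4, 16.3 and 16.5 FPKM from 2522, 2611 and 2543 recovered reads. vkg (viking, 2L 5012144 to 5028191, minus strand) stood at 10.1, 9.86 and 10.4 FPKM from 1757, 1664 and 1691 reads. These neighbouring genes point away from each other, with 1417 bases and no other annotated gene between their starts. vkg was below Col4a1 in 3 of 3 libraries with no overlap, and the log2 ratio was -0.66 ± 0.06, or 1.58-fold. The 2 chain genes held 7.08%, 7.17% and 6.95% of the FPKM of the 10 genes.

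Col4a1 had the same order of libraries as the fat body sum, over a much smaller range, and vkg was lowest in library 2. Counting did not resolve these orders, since the exact 95% Poisson intervals of all 3 libraries overlapped for both genes. For Col4a1 they were 15.7 to 17.0 FPKM in library 2 and 15.9 to 17.1 FPKM in library 3. From library 1 to library 3, while the fat body sum went from 541 to 2464 FPKM, Col4a1 went from 15.4 to 16.5 FPKM and vkg from 10.1 to 10.4 FPKM. The highest library exceeded the lowest 1.07-fold for Col4a1 and 1.05-fold for vkg. The SD of log2(FPKM + 0.1) was 0.06 for Col4a1 and 0.04 for vkg, where counting error alone gives 0.03 for each. The hemocyte sum ranged 1.24-fold and was highest in library 2. Its largest part was crq at 18.2, 22.2 and 18.1 FPKM, whose exons overlap those of ex on the other strand. How much of the collagen IV transcript level came from attached cells was not tested.

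**Figure D2:**
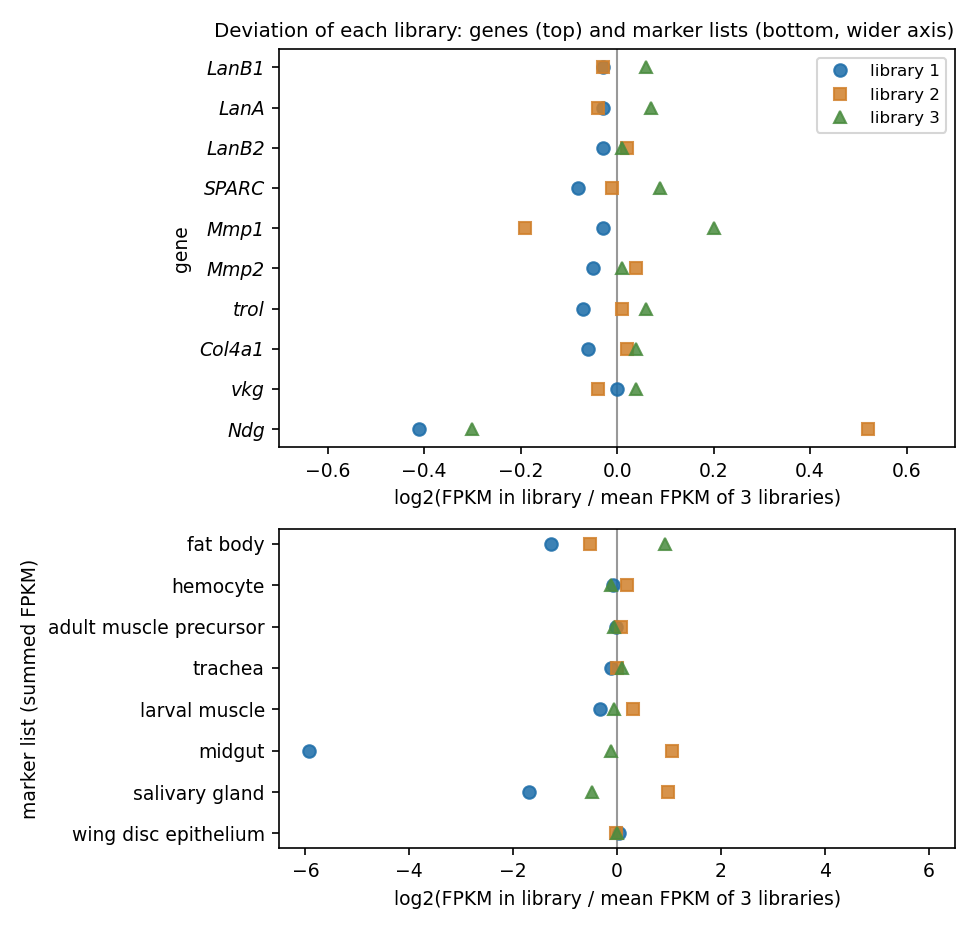
Deviation of each library from the mean of the 3, as log2 of FPKM over the mean FPKM, for the 10 genes (upper panel) and for the summed FPKM of 8 marker lists (lower panel, on a wider axis). Of the 10 genes, Ndg (from -0.41 to 0.52) and Mmp1 (from -0.19 to 0.20) spread the most, while the fat body sum runs from -1.27 to 0.92 and the midgut sum from -5.94 to 1.05.

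Hydroxylase genes for collagen stood above the collagen IV chain genes, and lysyl oxidase genes far below them. Of 7 genes in this list, 5 (71.4%) were called above 1 FPKM, against 53.4% of all genes tested. Loxl2 had no read and was not tested. Plod, the lysyl hydroxylase of collagen, stood at 33.8, 31.9 and 38.6 FPKM, and Tango1, which loads collagen at endoplasmic reticulum exit sites, at 34.2, 34.9 and 33.7 FPKM. PH4alphaEFB, a prolyl hydroxylase of collagen, stood at 22.2, 21.3 and 24.9 FPKM, above Col4a1 in each library with a log2 ratio of 0.50 ± 0.11. Mp, a collagen of the XV and XVIII type, was called at a mean of 7.61 ± 0.284 FPKM. Pxn, the peroxidasin that cross-links collagen IV and is also a hemocyte marker, stood at 4.99, 6.13 and 4.61 FPKM. The lysyl oxidase genes were low or without reads, with Loxl1 at 1.12, 0.939 and 1.28 FPKM (limma adjusted p = 0.259) and no read for Loxl2. Across the 3 libraries together, 3 reads of Loxl2 would have been 0.0224 FPKM, a limit that covers counting error only.

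SPARC came next after the laminin genes among the 10. SPARC (3R 26869238 to 26871995, minus strand), which encodes the collagen-binding glycoprotein, stood at 47.2, 49.5 and 53.0 FPKM. It was lowest in library 1 and highest in library 3, a 1.12-fold range. Its mean of 49.9 ± 2.94 FPKM (SD, n = 3) lay 3.09-fold above Col4a1, with a log2 ratio of 1.63 ± 0.04, and below LanB2 without overlap, with a log2 ratio of LanB2 to SPARC of 0.32 ± 0.07. Mmp1 came next in level, and SPARC exceeded it in each library by a log2 ratio of 0.76 ± 0.15.

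The linker genes trol and Ndg differed widely from each other. trol (X 2470460 to 2545427, minus strand), the perlecan gene, stood at 18.2, 19.2 and 19.8 FPKM, a mean of 19.1 ± 0.834 FPKM. It exceeded Col4a1 in each library without overlap, with a log2 ratio of 0.25 ± 0.02. The annotation gives trol 25 transcripts, and the longest covers 14232 of 20674 merged exon bases, so the per-kilobase level depends on which length is used. With the longest transcript as the length, the log2 ratio of trol to Col4a1 was 0.76.

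Ndg (2R 10313891 to 10322104, plus strand) was the lowest and the least steady of the 10. It stood at 1.33, 2.53 and 1.44 FPKM from 171, 316 and 173 reads. Library 2 was high and the other two were alike, with exact 95% Poisson intervals of 1.14 to 1.55, 2.26 to 2.82 and 1.23 to 1.67 FPKM that cover counting error only. The SD of log2(FPKM + 0.1) was 0.48, against 0.10 from counting error alone. Genes of low level vary more. Of the 636 other tested genes within 1.5-fold of its mean, 35.5% had a larger SD, and their median SD was 0.33. Ndg lay far below its binding partner gene LanB2, which encodes the laminin gamma chain, with a log2 ratio of -5.12 ± 0.46, or 34.9-fold lower. The gene next above it in level, vkg, exceeded it by a log2 ratio of 2.51 ± 0.51. With library 2 left out, Ndg was called above 1 FPKM (limma adjusted p = 0.0194).

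Marker genes of several other tissues were also highest in library 2, as Ndg was, against 31.7% of all genes tested. They were all 8 larval muscle markers, 6 of 7 midgut markers, all 6 salivary gland markers, 7 of the 8 hemocyte markers with reads and 5 of 7 adult muscle precursor markers. In the remaining lists it was 1 of 7 fat body markers, 2 of 6 tracheal markers and none of the 10 wing disc epithelium markers. Between libraries 1 and 3, where Ndg differed little, the midgut sum went from 6.94 to 391 FPKM and the salivary gland sum from 132 to 304 FPKM. The larval muscle sum was 1.55-fold higher in its highest library than in its lowest, against 1.90-fold for Ndg. Its single markers ranged from 1.10-fold to 2.80-fold, with a median of 1.75-fold. The part of these tissues in the Ndg value was not tested. Among 6665 genes whose mean reached 5 FPKM, the 5 whose centred log2 values over the 3 libraries were nearest to those of Ndg were CG4928, snRNA:U12, Atet, Atg18b and Ho, with root mean square distances of 0.04 to 0.07. Of these, Ho (heme oxygenase) stood at 16.1, 26.5 and 17.0 FPKM. With only 3 libraries this likeness rests on little, and 15 genes lay within 0.1.

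Both metalloprotease genes were expressed, and Mmp1 varied more than Mmp2. Mmp1 (2R 24671294 to 24688184, minus strand) stood at 28.9, 26.0 and 34.0 FPKM from 3733, 3269 and 4118 reads. Mmp2 (2R 9611139 to 9683858, minus strand), whose product is anchored at the cell surface, stood at 19.6, 20.8 and 20.4 FPKM. Their values did not overlap, and the lead of Mmp1 was smallest in library 2 and largest in library 3. Means were 29.7 ± 4.05 and 20.3 ± 0.616 FPKM (SD, n = 3), and the log2 ratio of Mmp2 to Mmp1 was -0.54 ± 0.21. The SD of log2(FPKM + 0.1) of Mmp1 was 0.19, against 0.02 from counting error alone, and that of Mmp2 was 0.04 against 0.03. Of the 2080 other tested genes within 1.5-fold of the mean of Mmp1, 2.12% had a larger SD, and their median SD was 0.05. Exons of Pof on the other strand cover 5.87% of the Mmp1 exons and an antisense RNA covers 5.67% of those of Mmp2, and the strand setting of the counting is unknown. Mmp2 and trol overlapped across libraries, with a log2 ratio of 0.09 ± 0.04 that turned to -0.16 with the longest transcript as the length.

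The inhibitor gene Timp was lower than both proteases. Timp (3R 10203875 to 10213007) stood at 5.85, 5.42 and 7.01 FPKM from 248, 224 and 279 reads, in the same order of libraries as Mmp1. The log2 ratio of Timp to Mmp1 was -2.29, -2.24 and -2.26 in libraries 1, 2 and 3, a mean of -2.26 ± 0.02 or 4.80-fold lower, whereas that of Timp to Mmp2 was -1.73 ± 0.20. Counting error alone gives Timp an SD of 0.09 on the log2 scale, above the 0.02 of its ratio to Mmp1. That ratio was therefore steadier than the reads can resolve, and whether Timp follows Mmp1 was not tested. Exons of Syn on the other strand cover 15.7% of the Timp exons. Of the 8 genes for inhibitors, activating proteases and ADAMTS proteases, 6 were called above 1 FPKM, against 53.4% of all genes tested. The furin gene Fur2 led at 39.5 ± 0.663 FPKM, followed by AdamTS-B at 19.6 ± 0.811 FPKM and AdamTS-A at 17.1 ± 0.268 FPKM. The ADAMTS-family genes stl and nolo were at 0.113 and 0.00457 FPKM.

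**Figure D3:**
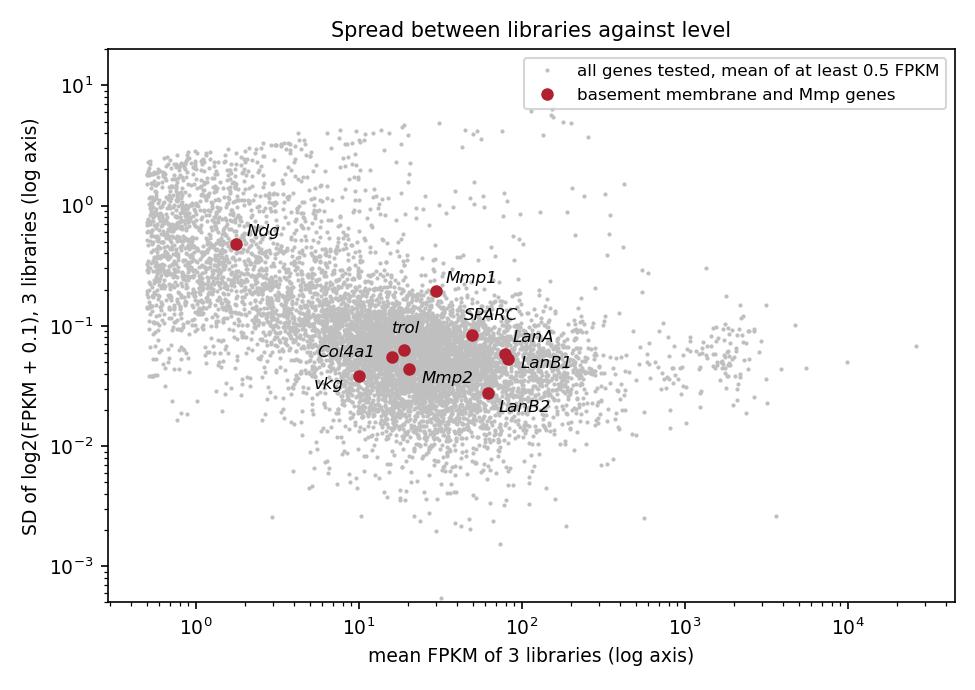
SD of log2(FPKM + 0.1) over the 3 libraries against mean FPKM, both on log axes, for all tested genes whose mean reached 0.5 FPKM (grey) and for the 10 genes (red). Mmp1 (SD 0.19) lies at the upper edge of genes of its level, Ndg (SD 0.48) lies among variable genes of low level, and the other 8 genes lie between 0.03 and 0.08.

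The typical spread of the 10 genes was that of other genes of their level. The median SD of log2(FPKM + 0.1) was 0.06 over the 10 genes, 0.06 over the 6596 tested genes whose mean lay between those of Ndg and LanB1, and 0.13 over all genes tested. Of the 10, 7 were highest in library 3, 3 in library 2 and none in library 1, whereas 35.6% of the 6596 genes were highest in library 3. From the highest to the lowest library, vkg, LanA, LanB1 and Mmp1 had the order 3, 1, 2, which was also that of 34.3% of the 35 listed partner genes in this range of levels and of 18.3% of the 6596. Col4a1, trol and SPARC had the order 3, 2, 1, that of the fat body sum, as did 20.0% of the partner genes and 17.3% of the 6596. LanB2, Mmp2 and Ndg had the order 2, 3, 1, as did 5.71% and 13.7%. Only for Mmp1 were the exact 95% Poisson intervals of all 3 libraries apart. For the other genes at least part of the order lay within counting error. The part of fat body in these orders was not tested.

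Receptors of the matrix were expressed alongside it. Of 10 receptor genes, 8 were called above 1 FPKM, against 53.4% of all genes tested. Sdc (syndecan) led at 114 ± 2.87 FPKM (SD, n = 3), followed by mys, the main integrin beta subunit gene, at 68.1, 68.9 and 69.9 FPKM, and Dg (dystroglycan, a laminin receptor) at 59.6, 60.6 and 60.8 FPKM. Of the integrin alpha subunits, mew, which pairs with mys as a laminin receptor, stood at 44.8, 43.8 and 44.7 FPKM. It was higher than if, whose integrin binds ligands such as tiggrin, at 22.3, 21.0 and 22.6 FPKM in each library, with a log2 ratio of 1.01 ± 0.04. The alternative subunits Itgbn and ItgaPS4 were at 0.178 and 0.181 FPKM.

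Among other matrix genes, 7 of 9 were called above 1 FPKM, against 53.4% of all genes tested. Ppn (papilin, 3R 28520665 to 28540324) stood at 98.7, 96.9 and 91.3 FPKM, above the mean of every one of the 10 genes. It was followed by Tsp (thrombospondin) at 27.7 ± 0.894 FPKM and NetB (a netrin) at 11.5 ± 0.759 FPKM. The cardiac collagen-like gene prc and the Wingless carrier gene Cow were at 0.00678 and 0.0503 FPKM. All 10 listed genes for the secretion of matrix proteins were called, led by the vesicle coat genes Sar1 at 157 ± 5.15 FPKM and Sec23 at 101 ± 2.64 FPKM and by Rab8 at 63.7 ± 0.481 FPKM.

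**Figure D4:**
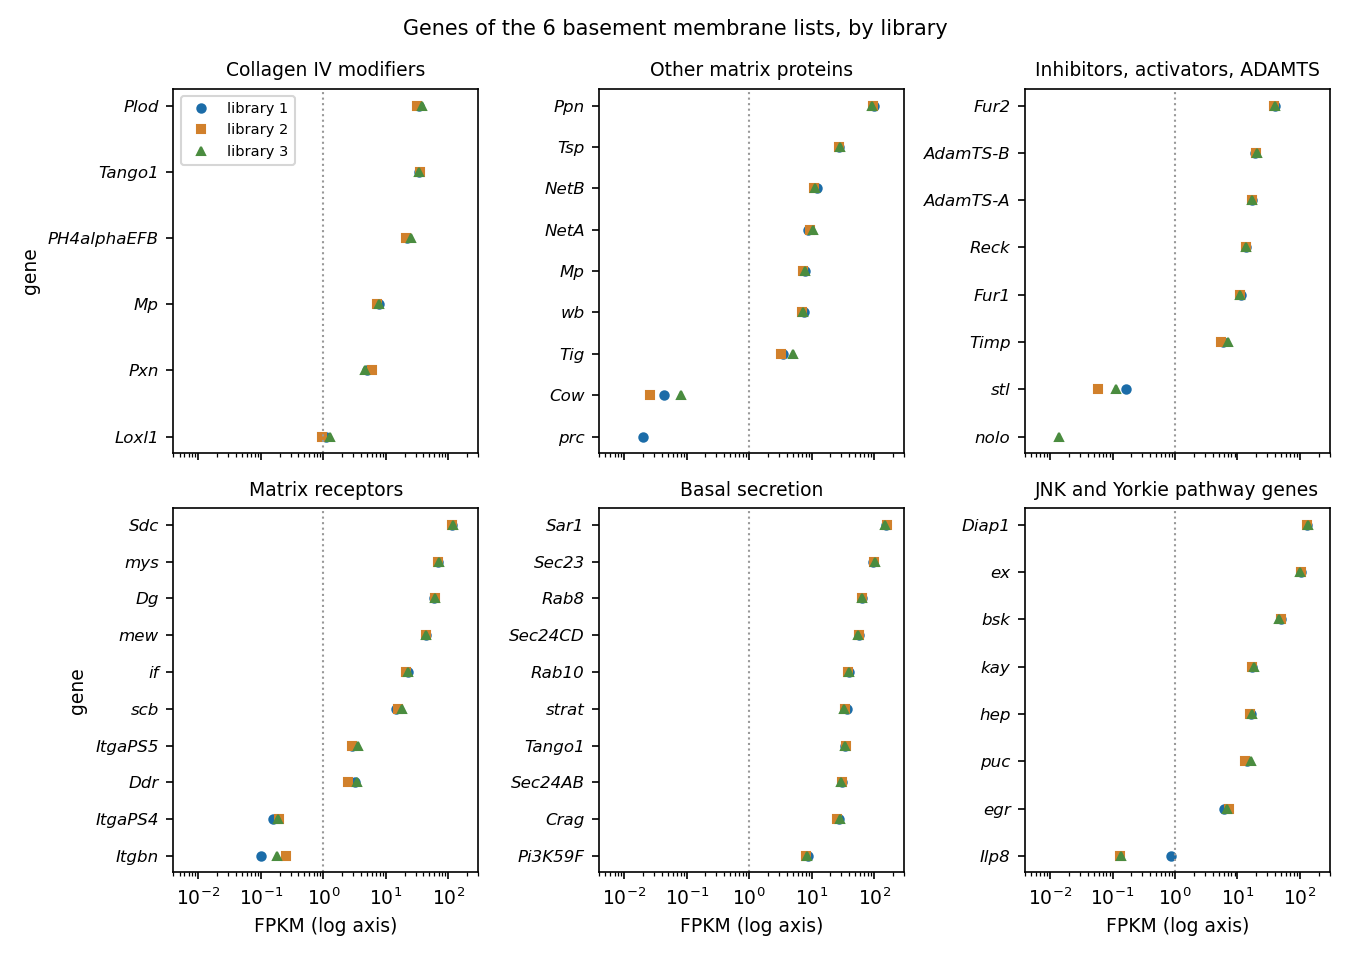
FPKM on a log axis, with 1 symbol per library, for the genes of 6 lists around the basement membrane, with a dotted line at 1 FPKM. Values of 0 are not drawn, so Loxl2 is absent. All 10 secretion genes lie above 1 FPKM, and 8 listed genes have a mean under it.

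Of 8 genes of JNK signalling, which is known to raise Mmp1 in damaged discs, and of targets of the growth regulator Yorkie, 7 were called above 1 FPKM. The Yorkie targets Diap1 and ex stood at 133 ± 2.91 and 103 ± 2.53 FPKM, and bsk, the JNK gene, at 48.8 ± 1.72 FPKM. Ilp8, a peptide gene induced by disc damage, stood at 0.866, 0.133 and 0.138 FPKM, highest in library 1, from only 20, 3 and 3 reads. In the same list, puc stood at 14.4, 13.4 and 16.7 FPKM. The order of libraries of puc and of hep was that of Mmp1, and that of the other listed genes was not. In the level range of the members, 34.3% of 35 listed partner genes and 18.3% of 6596 tested genes also had this order. For hep, libraries 1 and 3 stood at 16.7 and 16.8 FPKM, which leaves their order unresolved. Both genes were named after their values were seen, and a link of either to Mmp1 was not tested. Over the 6 lists, 41 of 50 distinct genes (82.0%) were called above 1 FPKM, against the background of 53.4%. An exact two-sided sign-flip permutation test gave p = 0.25 for each of the 17 gene ratios computed, the smallest that 3 libraries allow, and all 17 had the same sign in 3 of 3 libraries. Of these ratios, 4 were formed from neighbours in the order of levels, which sets their direction. The other 13 pairs were chosen with earlier results of these data known, and some are also neighbours in level. The shared signs are therefore a description only.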

How the data were processed

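The deposited table holds FPKM values made by the authors, 1 column per library, matched to the samples by number since the prefix w118 is in no label. The submitters' processing notes name CASAVA 1.8, FastQC 0.11.8, STAR 2.7.6a, featureCounts 1.6.0, DESeq2 and genome build dm6. The sources used here do not give the annotation or the multi-mapping and strand settings. Per the labels' protocols, sequencing of the TruSeq libraries was paired-end with 50 nt reads. FPKM were multiplied by merged exon lengths of Ensembl release 115 (dm6 coordinates). In each library 99.7% of the products above 0 were whole multiples of 1 step (tolerance 0.01 of a read), which gave the recovered reads. For trol a length of 20644 bases, the only one that gave whole reads in all 3 libraries, replaced the annotated 20674.

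The main test was limma 3.58.1 in R 4.3.3, one-sided, of mean log2(FPKM + 0.1) against 1 FPKM, over the 13909 genes above 0 in any library, called at an adjusted p under 0.05. The added 0.1 shrinks differences between low genes. The members, 6 gene lists, 8 marker lists and 13 pairs were chosen with earlier results of these data known. Genes were named by rule from the members, paired genes, the 3 highest of each list, list genes under 1 FPKM and the 5 genes most like the most variable member. Loxl1, Pxn, Mp, puc and hep were named after their values were seen. Reck and strat were matched by synonym, and 1 symbol that matched an RNA-binding protein was left out.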

Additional observations from a re-analysis of the deposited data

How the results depend on the processing

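Alternatives were other pseudocounts, a threshold of 5 FPKM, a filter at a mean of 0.1 FPKM, rescaling each library to the same sum of values, the longest transcript as the length, and leaving out each library. Counts of genes past the threshold stayed within 1.5-fold of the main count under each alternative, and 10 of 61 recomputed counts changed. The members called, and those past the threshold in each library, ranged from 9 to 10, collagen modifiers from 4 to 6, other matrix genes from 6 to 7, inhibitors and proteases from 5 to 6 and receptors from 6 to 8. Of the 10 genes, Ndg alone changed its call. Its log2 level above the threshold was 0.71, with an adjusted p of 0.0507, and it passed with a pseudocount of 1 (adjusted p = 0.0472), the filter (0.0396) or without library 2 (0.0194), and was -1.51 against 5 FPKM. The rescaling raised genes of 1 FPKM or more by a median of 0.93 on the log2 scale with the threshold kept at 1, so the pass of Ndg under it (0.00643) reflects a lower bar. With a pseudocount of 1 the log2 ratio was 1.58 for SPARC to Col4a1, -4.55 for Ndg to LanB2, -3.27 for wb to LanA and -2.11 for Timp to Mmp1. With the longest transcript as the length it was 1.69 for SPARC to Col4a1, 0.76 for trol to Col4a1, -0.09 for LanA to LanB1, -3.13 for wb to LanA, -2.58 for Timp to Mmp1, -2.01 for Timp to Mmp2, 0.51 for SPARC to Mmp1 and, reversed, -0.16 for Mmp2 to trol. These follow from the added constant and from the lengths. Without genes of the mitochondrial genome the share of the 10 genes was 0.0766%, in place of 0.0706%. No pairing of samples between conditions was possible because all 3 libraries belong to 1 group.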
